A study of Rattus norvegicus with 10 samples.

Results

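The genes described here encode proteins of epithelial cell junctions and 2 classical cadherins, 9 genes in all: Cdh1, Cdh2, Ocln, F11r, Epcam, Tjp1, Cldn3, Cldn4 and Cldn5. They are a fixed list, drawn up with the responses of these same cultures to both drugs already known, so their rise with either drug is how they came to be chosen and is given as a description. The deposited table lists 32883 rat genes by Ensembl identifier alone. Identifiers could be paired with symbols for 5 of the 9 genes, namely Cdh1 (ENSRNOG00000020151), Ocln (ENSRNOG00000018297), F11r (ENSRNOG00000004414), Epcam (ENSRNOG00000015667) and Cldn3 (ENSRNOG00000046007), and all 5 passed the filter on low counts. Cdh2, Tjp1, Cldn4 and Cldn5 were not analysed here. The pairing rests on the study's readable list of upregulated genes, so nearly all genes that fell are without a name here, and this holds for every gene list below.

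Epithelial cells are held together by adherens junctions, in which cadherins bind cadherins of the next cell, and are sealed by tight junctions, in which claudins and occludin close the space between cells. Neurons and glia mainly use N-cadherin (Cdh2) rather than E-cadherin (Cdh1), while in the brain claudins and occludin are best known from endothelium and choroid plexus. Histone deacetylases remove acetyl groups from histones, and the repressors Snai1, Snai2, Zeb1 and Zeb2, which bind E-box sequences in the Cdh1 promoter, are known to recruit such enzymes.

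The cultures were made from the cortex of newborn Wistar rats, and the drugs were added on day 14 in vitro. They hold neurons together with glia, and the RNA is bulk poly(A) RNA, so that fewer cells of a type and less RNA per cell cannot be told apart. There were 4 groups of libraries: 3 of cultures given 100 nM trichostatin A (TSA) for 19 h, 3 of their untreated controls (controls for TSA), 2 of cultures given sodium butyrate (NaB) for 24 h, and 2 of their untreated controls (controls for NaB, replicates 4 and 5). Both drugs are broad inhibitors of histone deacetylases, and the drug was present until the cells were collected. The sample labels give the NaB dose as 5 µM, and the methods text gives it as 5 mM. The NaB libraries came from a separate project, so drug, hours and project changed together. The depth was 26956397 to 27649249 reads in the controls for TSA, 26070908 to 27606793 with TSA, 27426771 and 26844994 with NaB, and 26748731 and 26902233 in its controls. Values are normalised read counts: each gene's reads in a library over that library's size factor. They are not divided by transcript length, so levels are compared between libraries for each gene and not between genes.

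The stretches just before the start sites of the genes are shown for the letters they hold, with E-boxes marked. RefSeq sequences of the rat assembly GRCr8 were at hand for 4 of the 5 measured genes, and not for Cdh1. These are coordinates of GRCr8 and not of Rnor_6.0, the build on which the reads were counted. The 250 bases that end at the start site lie at chr2:33441199-33441448 on the minus strand for Ocln, chr13:86405979-86406228 on the plus strand for F11r, chr6:12649679-12649928 on the minus strand for Epcam, and chr12:27346548-27346797 on the minus strand for Cldn3. Each is printed 5′ to 3′ in the direction of transcription, with every E-box (CACCTG, or CAGGTG on the other strand) in capitals.
Ocln: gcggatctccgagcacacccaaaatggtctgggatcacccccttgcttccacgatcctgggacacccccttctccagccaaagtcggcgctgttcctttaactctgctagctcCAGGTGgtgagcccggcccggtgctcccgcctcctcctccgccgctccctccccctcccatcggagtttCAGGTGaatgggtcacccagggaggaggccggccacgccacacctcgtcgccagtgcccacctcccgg
F11r: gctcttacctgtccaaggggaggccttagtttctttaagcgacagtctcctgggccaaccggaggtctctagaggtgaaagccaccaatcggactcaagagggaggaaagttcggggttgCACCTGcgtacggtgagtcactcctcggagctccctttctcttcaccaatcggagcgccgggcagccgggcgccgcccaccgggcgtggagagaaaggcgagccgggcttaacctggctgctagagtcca
Epcam: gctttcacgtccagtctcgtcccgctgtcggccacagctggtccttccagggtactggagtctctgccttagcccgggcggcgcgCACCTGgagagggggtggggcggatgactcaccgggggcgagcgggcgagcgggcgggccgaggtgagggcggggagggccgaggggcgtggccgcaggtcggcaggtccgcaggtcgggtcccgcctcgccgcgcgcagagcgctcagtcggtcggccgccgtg
Cldn3: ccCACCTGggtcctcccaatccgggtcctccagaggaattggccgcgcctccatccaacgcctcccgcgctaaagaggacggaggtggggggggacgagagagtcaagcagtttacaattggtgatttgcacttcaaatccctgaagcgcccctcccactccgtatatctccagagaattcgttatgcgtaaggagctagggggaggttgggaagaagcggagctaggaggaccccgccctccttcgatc

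All 4 stretches held an E-box, against 15.9% of the 33469 rat promoters of the same length in the table. In Ocln there were 2, with first bases 137 and 68 bases before the start. F11r, Epcam and Cldn3 had 1 each, 130, 165 and 248 bases before the start. A GC box (GGGCGG or CCGCCC), the sequence that Sp1 binds, was found in 3 of the 4, namely once in F11r, once in Cldn3 and 4 times in Epcam, and in 30.5% of all promoters. None of the 4 held TATAAA or TTTATA, which 12.9% of all promoters hold. The stretches were rich in the dinucleotide CG, with 16 in Ocln, 17 in F11r, 33 in Epcam and 15 in Cldn3 against a median of 5 over all promoters. Their GC content was 66.4%, 61.2%, 75.6% and 59.2% in the same order, against a median of 51.2%. These matches describe the letters of the 4 stretches, and binding was not measured. The 4 genes were chosen as raised, and the set of all promoters is not matched to them in CG or GC content. Whether the E-boxes bear on the rise was not tested.

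F11r, which encodes the junctional adhesion molecule JAM-A, an immunoglobulin-like protein of tight junctions, rose most of the 5. In the controls for TSA its normalised read counts were 2.11, 1.03 and 3.20, which is 2, 1 and 3 reads, and 313, 166 and 301 with TSA. The NaB experiment gave 1.04 and 7.31 in controls (1 and 7 reads) and 251 and 268 with the drug. Every control library held at most 7 reads of F11r and every treated library at least 165.5 normalised counts, with TSA replicate 2 well below the other TSA libraries. The log2 fold change on log2(count + 1) was 6.40 (SE 0.49, n = 3 per group) with TSA and 5.99 (SE 0.60, n = 2 per group) with NaB. From the summed reads, 827 against 6 with TSA, the ratio was 123 (95% exact interval 56.3 to 336), and with NaB it was 62.4 (31.5 to 145), intervals that cover counting error only. Leaving out control replicate 4 for NaB gave a log2 fold change of 4.97 with NaB, and leaving out replicate 5 gave 7.00. Among the 15717 genes tested, F11r stood 9th from the top by log2 fold change with TSA and 11th with NaB.

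Cldn3 encodes claudin-3, a sealing claudin of tight junctions. It was counted at 3.16, 10.3 and 2.13 in the controls for TSA and at 89.1, 66.0 and 74.8 with TSA. The controls for NaB held 3.11 and 3.13, which is 3 reads each, and the NaB libraries 68.0 and 76.2. The groups did not overlap, and control replicate 2 for TSA, with 10 reads, was the highest of the 5 control libraries. Its log2 fold change was 3.87 (SE 0.42) with TSA and 4.15 (SE 0.52) with NaB. The ratio of reads with NaB was 23.1 (95% exact interval 10.4 to 64.0).

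Ocln encodes occludin, a membrane protein that spans the tight junction strand. Its normalised read counts were 14.8, 10.3 and 18.1 in the controls for TSA and 105, 94.98 and 120 with TSA. The NaB libraries held 114 and 148, and their controls 8.28 and 15.7. Here the TSA libraries lay close together, at 107 ± 12.8 (SD, n = 3), and the NaB libraries lay farther apart in proportion. The log2 fold change was 2.83 (SE 0.28) with TSA and 3.40 (SE 0.35) with NaB.

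Cdh1 encodes E-cadherin, the cadherin of epithelial adherens junctions. It was counted at 6.33, 3.09 and 8.53 in the controls for TSA (6, 3 and 8 reads) and at 50.6, 40.7 and 55.4 with TSA. The controls for NaB held 3.11 and 7.31 (3 and 7 reads), and the NaB libraries 45.4 and 40.5. E-cadherin transcripts were thus at most 8 reads in every control library and at least 40.5 normalised counts in every treated one. The log2 fold change was 2.91 with either drug (SE 0.38 with TSA and 0.47 with NaB).

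Epcam encodes an adhesion molecule of epithelial and epithelial progenitor cells that binds claudins. Its normalised read counts were 9.49, 8.24 and 4.27 in the controls for TSA and 62.8, 57.0 and 47.6 with TSA. In the NaB experiment they were 4.14 and 5.22 without and 68.0 and 39.5 with the drug. Epcam was the only one of the 5 whose lowest TSA library was replicate 3, since for the other 4 it was replicate 2. The log2 fold change was 2.82 (SE 0.34) with TSA and 3.23 (SE 0.41) with NaB.

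**Figure D1:**
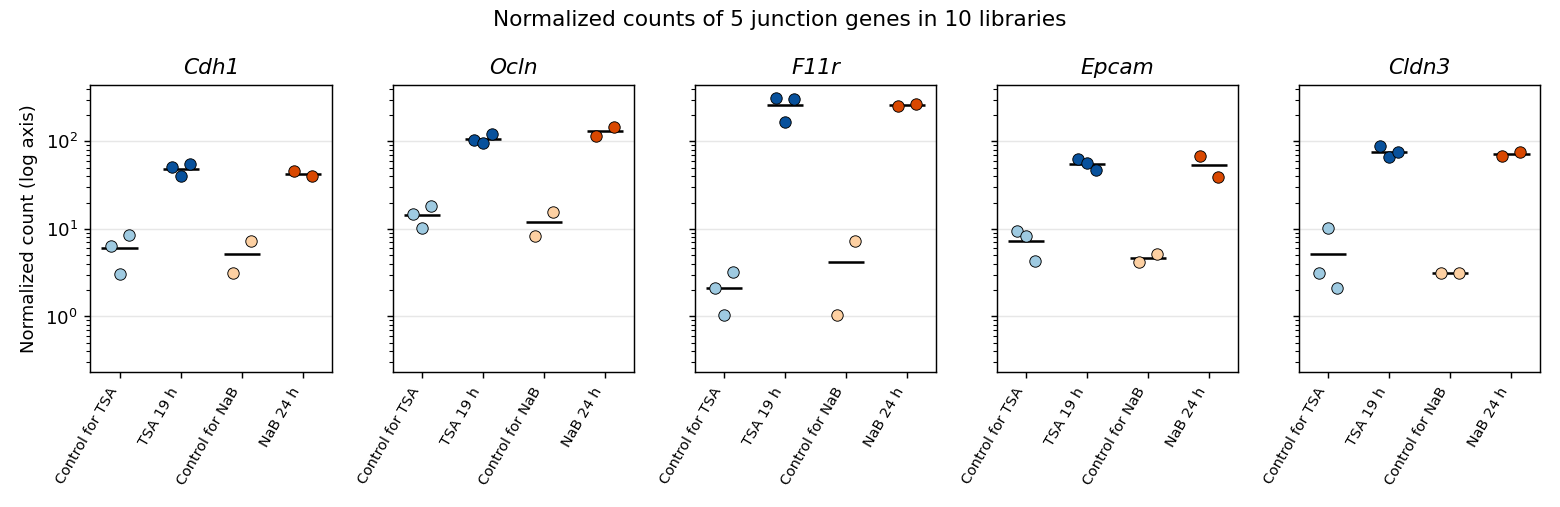
Normalised read counts (log axis) of Cdh1, Ocln, F11r, Epcam and Cldn3 in each of the 10 libraries, by group. Points are libraries and bars are group means (n = 3 for TSA and its controls, n = 2 for NaB and its controls). In all 5 panels every treated library lies above every control library, with the widest gap in F11r.

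All 5 genes passed the thresholds of the study-wide fit (limma, adjusted p under 0.05 together with a log2 fold change of 0.5 or more in size) as higher with TSA, where 22.5% of all tested genes did, and as higher with NaB, where 21.2% did. The treated libraries all lay above their controls in 5 of 5 genes with each drug, against 33.1% of tested genes with TSA and 40.2% with NaB. Since the genes were chosen on these contrasts, nothing is read from the counts. Their median log2 fold change was 2.91 with TSA and 3.40 with NaB, and over all tested genes it was 0.022 and 0.020. With a pseudocount of 5 in place of 1 the changes with TSA were smaller, at 2.32 in Cdh1 and in Epcam, 2.54 in Ocln, 3.08 in Cldn3 and 5.18 in F11r. With NaB they were 2.26 in Cdh1, 2.56 in Epcam, 3.03 in Ocln, 3.25 in Cldn3 and 4.94 in F11r.

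The response to NaB was then compared with that to TSA for each gene, as the NaB change minus the TSA change in the same limma fit. None of the 5 genes passed the thresholds, against 0.299% of all tested genes, and none had an unadjusted p below 0.05 with limma, DESeq2 or edgeR on all 10 libraries. Over all tested genes 4 passed as higher and 43 as lower with NaB than with TSA, which became 113 and 291 with the pairs as a block and 0 and 1 without control replicate 5 for NaB. For Ocln the difference was 0.56 on the log2 scale (95% interval -0.43 to 1.56, limma adjusted p = 0.653), and for Epcam 0.41 (-0.77 to 1.58, adjusted p = 0.803). For Cldn3 it was 0.28 (-1.20 to 1.76, limma adjusted p = 0.904), and for F11r -0.41 (-2.12 to 1.30, adjusted p = 0.873). Without control replicate 4 for NaB the difference in F11r was -1.42 (limma unadjusted p = 0.0388, adjusted p = 0.399). The estimate for Cdh1 was -0.0017 (-1.33 to 1.33, limma adjusted p = 0.999). In each gene the interval reaches beyond 1 on the log2 scale, so it still holds a change with NaB that is more than 1 log2 unit above that with TSA. For Cdh1, Cldn3 and F11r it also holds a change with NaB that is more than 1 log2 unit below that with TSA. The genes were named as raised by both drugs, which also bears on how far apart the drugs can lie. TSA and NaB differ widely in structure, a hydroxamic acid against the salt of a short-chain fatty acid, and their doses and hours differ, so the 2 sets of values stand side by side.

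**Figure D2:**
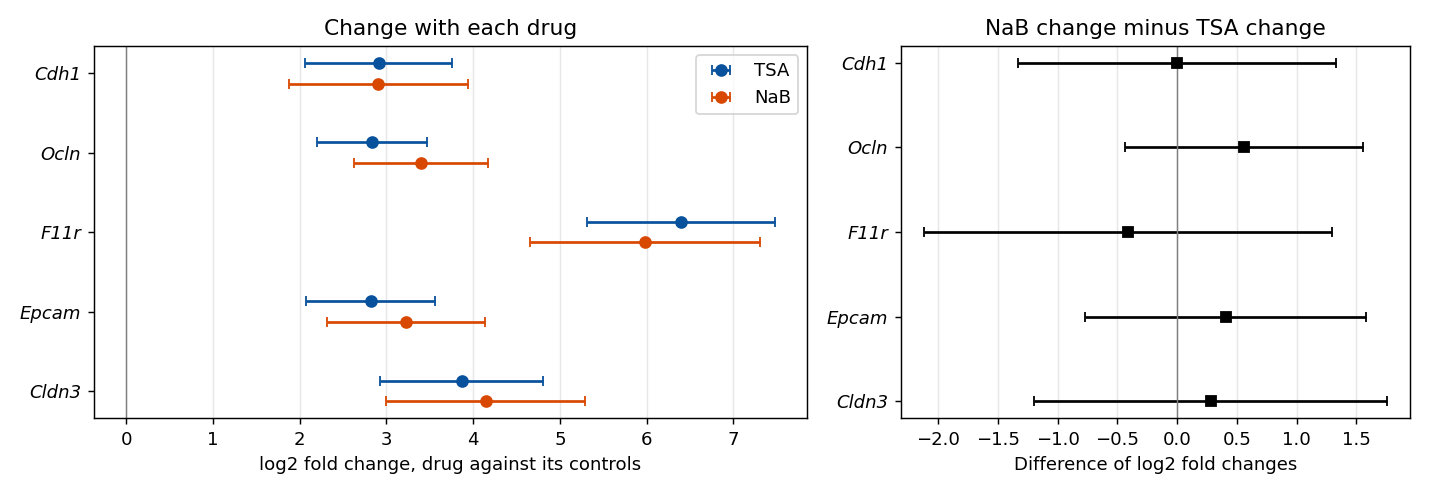
Left, log2 fold change of each gene with TSA (n = 3 against 3) and NaB (n = 2 against 2), each against its own controls. Right, NaB change minus TSA change, with bars in both panels giving 95% intervals from the limma fit over all genes. The left intervals lie to the right of 0 in all 5 genes, and the right intervals all include 0.

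The untreated cultures of the 2 projects were also compared. Their libraries are the controls of both contrasts on which the genes were chosen, so this comparison is not independent of that choice. On the log2 scale, the controls for NaB minus the controls for TSA came to -0.17 for Cdh1 (95% interval -1.12 to 0.77, limma adjusted p = 0.860), -0.28 for Ocln (-0.98 to 0.43, adjusted p = 0.676) and -0.36 for Cldn3 (-1.41 to 0.69, adjusted p = 0.717). For Epcam the difference was -0.50 (-1.33 to 0.33, limma adjusted p = 0.503), and for F11r, 0.46 (-0.75 to 1.67, adjusted p = 0.682). None of the 5 passed the thresholds, where 1.55% of all tested genes did. None had an unadjusted limma p below 0.05 with all 10 libraries. Since these control libraries entered the choice and hold few reads of the 5 genes, nothing is read from the counts. Without control replicate 4 for NaB the difference in F11r was 1.48 (limma unadjusted p = 0.0105, adjusted p = 0.164), and without control replicate 3 for TSA that in Epcam was -0.80 (limma unadjusted p = 0.0437, adjusted p = 0.284). Over all tested genes the calls, 155 higher and 88 lower in the controls for NaB, became 10 and 12 without control replicate 5 for NaB and 297 and 164 without control replicate 2 for TSA. With at most 17 reads of any of these genes in a control library, counting error alone is large here.

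A control and a treated culture of each pair shared a plate, which gives a change for each pair. In F11r the 3 TSA pairs rose by 6.66, 6.36 and 6.17 on log2(count + 1), and the NaB pairs by 6.95 and 5.02. The controls of the TSA pairs held 2, 1 and 3 reads of F11r, so these values depend on the 1 added before the log. Whether TSA replicate 2 changed as much as its neighbours in F11r cannot be read from them. In Cldn3 the TSA pairs rose by 4.44, 2.57 and 4.60, and the NaB pairs by 4.07 and 4.22. The second pair is the one whose control had 10 reads, and it stands apart from the other TSA pairs by more than they do from each other. For Cdh1, Ocln and Epcam the TSA pairs ranged from 2.56 to 3.35, from 2.67 to 3.09 and from 2.605 to 3.21. In the NaB experiment the pair of replicate 1 rose more than that of replicate 2 in Cdh1 (3.50 and 2.32), Ocln (3.64 and 3.16), Epcam (3.75 and 2.704) and F11r, and less in Cldn3. The controls of these pairs held 3 and 7 reads of Cdh1, 8 and 15 of Ocln, and 1 and 7 of F11r. The NaB library of replicate 2 was the higher in Ocln (148 against 114), F11r (268 against 251) and Cldn3, and the lower in Cdh1 and Epcam. Which NaB pair responded more cannot be read from these values. All 5 genes rose in each of the 5 pairs, but they were chosen on these contrasts, so nothing is read from that.

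**Figure D3:**
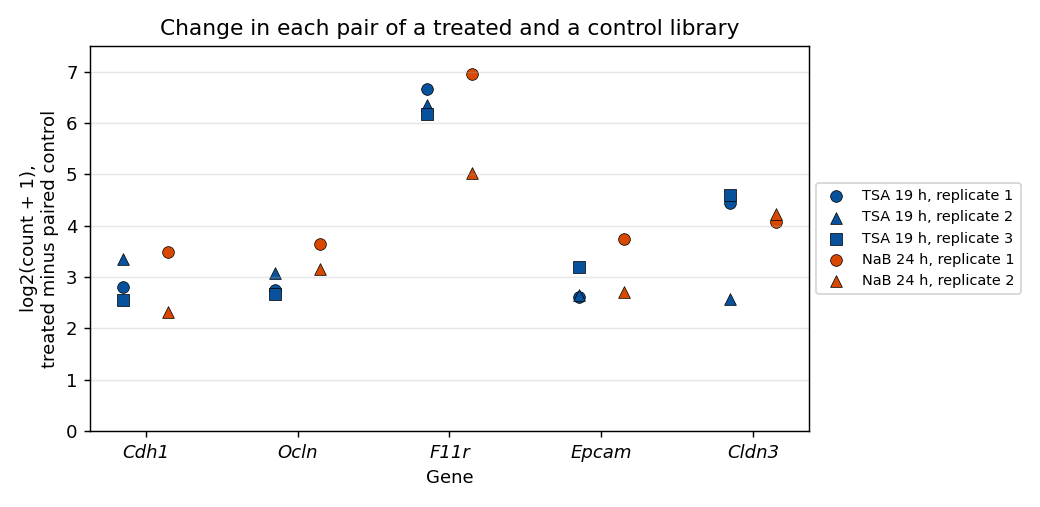
Difference in log2(normalised read count + 1) between each treated library and the control library paired with it, for each of the 5 genes. Marker shapes give the treated replicate and colours the drug. All 25 differences are above 0, in genes chosen for their rise with these drugs. F11r lies highest, and the second TSA pair lies low in Cldn3.

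Over the 10 libraries, log2(count + 1) of the 5 genes ran closely together, and since treated and control libraries are pooled the correlation mostly describes that shared step. Pearson's r was highest between Ocln and F11r (0.989), Cdh1 and Ocln (0.988) and Cdh1 and F11r (0.988), and 0.971 between Epcam and Cldn3. It was lowest between Cdh1 and Cldn3 (0.907). Of the 15716 other tested genes, 509 had r above 0.95 with Cdh1, 773 with Ocln and 887 with F11r, and 6, 13 and 23 had r above 0.99. Among tested genes with a symbol, the patterns most like Cdh1 were those of Baiap2l1 (r = 0.992), Ghsr (0.991) and Tmem217 (0.9903). Those most like F11r were Hoxb13 (0.997), Fsip1 (0.995) and Pik3r5 (0.995), and those most like Ocln were Ghsr (0.996), Cgnl1 (0.993) and Bik (0.992). Hoxb13, a posterior homeobox gene, had a mean of 0.356 in the controls for TSA and 121 with TSA, and of 1.04 and 137 in the NaB experiment. Cgnl1, which encodes paracingulin, a scaffold protein of apical junctions, is itself on the junction lists.

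In the gene order of GRCr8, Cdh1 lies beside Cdh3, which encodes P-cadherin, another cadherin of epithelia. Cdh3 was counted at 10.5 ± 1.17 (SD, n = 3) in the controls for TSA and 137 ± 28.5 with TSA, and at 9.37 ± 5.94 (SD, n = 2) in the controls for NaB and 110 ± 12.6 with NaB. Its log2 fold change was 3.57 (SE 0.32) with TSA and 3.55 (SE 0.39) with NaB, larger than that of Cdh1 next to it by less than 1 on that scale. Cldn3 and Cldn4 are neighbours, and Mettl27 on the far side of Cldn4 changed by 1.495 (SE 0.34) and 1.35 (SE 0.41). Chst9, which lies beside Cdh2, changed by 3.35 (SE 0.43) and 2.83 (SE 0.53). The other nearest protein-coding neighbours of the 9 genes could not be paired.

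Wider lists of junction and epithelial genes, drawn from textbook membership, held 158 genes, of which 40 could be paired and 35 were tested. Of these, 34 passed the thresholds as higher with TSA, 32 with NaB and 31 with both, and none as lower, against 22.5% and 21.2% of all tested genes as higher and 19.7% and 20.3% as lower. Their names exist here only because the study listed them as upregulated, so these counts are not independent evidence of a direction: of all 1828 tested genes with a symbol, 97.6% passed as higher with TSA and 87.7% with NaB. The median log2 fold change of the 35 was 2.42 with TSA and 2.69 with NaB. At most 3 reads were found in every control library for 12 of the 40 with TSA, and for 12 with NaB, and the fitted changes of such genes depend on the 1 added before the log. Cdh17, Dsc1, Dsc3, Snai3 and Krt23 fell below the filter.

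Of the other claudins, 3 of 18 were paired, and all 3 passed as higher with both drugs. Cldn1, the claudin of epidermis, went from 8.41 ± 2.17 (SD, n = 3) to 76.8 ± 11.2 with TSA and from 7.29 ± 4.45 (SD, n = 2) to 42.4 ± 14.9 with NaB. Cldn6, a claudin of embryonic epithelia, changed by 1.65 (SE 0.51) and 2.04 (SE 0.62) on the log2 scale, and its TSA libraries overlapped their controls. It was no longer called with TSA without control replicate 2, TSA replicate 1 or TSA replicate 3, nor with NaB without control replicate 4 or 5 or NaB replicate 2. Of 30 other tight junction membrane and scaffold genes, 8 were paired, and 8 passed with TSA and 7 with NaB. Cgnl1 rose from 47.5 ± 22.1 to 613 ± 112 with TSA and from 40.6 ± 14.9 to 716 ± 105 with NaB. Marveld3, which belongs to the same membrane protein family as occludin, changed by 3.46 (SE 0.54) and 3.33 (SE 0.67) from about 1 count in either control group.

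The cadherins and their partners were thinly covered. Of 21 other cadherins 3 were paired and 2 tested, Cdh3 and the neuronal cadherin Cdh18, and both passed with both drugs. Cdh18 was already well expressed before treatment, at 384 ± 38.0 in the controls for TSA and 344 ± 157 in those for NaB, and it changed by 1.44 (SE 0.24) and 2.19 (SE 0.30). Of 14 adherens junction partners 2 were paired, and both passed with both drugs. Nectin4, an adhesion molecule of epithelia, changed by 3.53 (SE 0.44) and 3.51 (SE 0.54), and Vcl, which encodes vinculin and is used by most adherent cells, by 1.11 (SE 0.12) and 0.93 (SE 0.14) from a mean of 1418 in the controls for TSA. The catenin genes Ctnnb1, Ctnna1 and Ctnnd1 were not analysed here.

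Desmosomes anchor keratin filaments at junctions. Of their 14 listed genes 6 were paired and 4 tested, and all 4 passed with both drugs. Dsp, which encodes desmoplakin, went from 2.11 ± 1.83 to 164 ± 34.9 with TSA and from 0.522 ± 0.738 to 103 ± 8.68 with NaB. Its log2 fold change of 5.86 (SE 0.42) and 6.18 (SE 0.52) was the nearest to that of F11r among the 35. Ppl, which encodes the linker periplakin, changed by 4.12 (SE 0.31) and 3.86 (SE 0.38). Of 20 connexins, the channel proteins of gap junctions, 5 were paired, and 4 passed with TSA, 4 with NaB and 3 with both. Gja3 changed by 3.24 (SE 0.57) and 3.37 (SE 0.70), and Gjb5 by 2.10 (SE 0.66) and 3.13 (SE 0.81), both from means of at most 1.38 counts. The TSA libraries of Gjb5 overlapped their controls (lowest 2.91, highest control 3.09), and DESeq2 did not call its change with TSA (adjusted p = 0.0733).

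**Figure D4:**
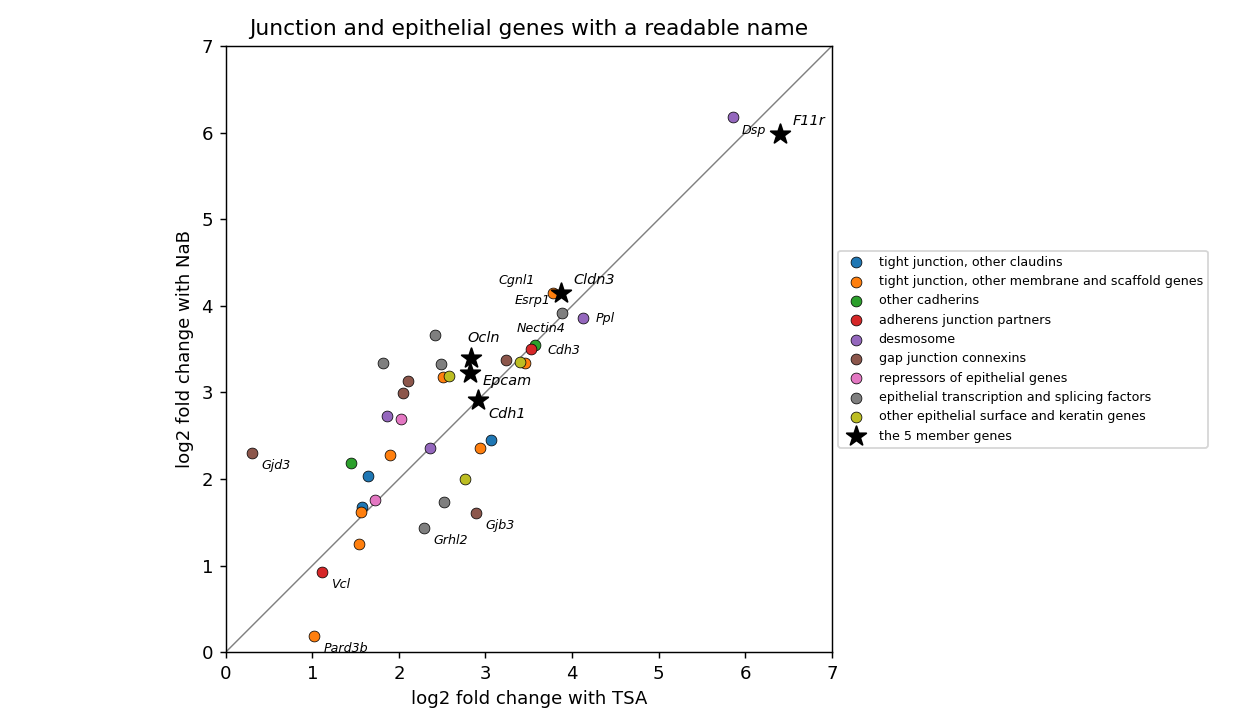
Log2 fold change with TSA (horizontal) against that with NaB (vertical) for the 35 tested junction and epithelial genes, coloured by list, and for the 5 genes described above (stars). The line marks equal change. Most genes lie near it, F11r and Dsp are farthest out, and Gjd3 and Pard3b lie off the line near an axis.

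Of the factors that act on epithelial genes, 3 of 9 repressors were paired and 2 tested, and both passed with both drugs. Twist1 changed by 1.72 (SE 0.38) and 1.76 (SE 0.47), and Twist2 by 2.03 (SE 0.53) and 2.69 (SE 0.65). Without control replicate 5 for NaB or without NaB replicate 1, Twist1 was no longer called with NaB, at 0.905 and 1.67 in that order. Twist1 and Twist2 are known as repressors of E-cadherin. Like Cdh1, they could be named only from the list of upregulated genes. A link between their change and that of Cdh1 was not tested. Snai1, Snai2, Zeb1 and Zeb2 were not analysed here. Of 13 epithelial transcription and splicing factors 6 were paired, and 6 passed with TSA and 5 with NaB. Esrp1, an epithelial splicing regulator, went from 2.10 ± 1.07 to 45.1 ± 18.5 with TSA and from 1.56 ± 0.744 to 37.2 ± 6.22 with NaB, and Esrp2 changed by 2.49 (SE 0.57) and 3.33 (SE 0.70). Grhl2, an activator of Cdh1 and claudin genes, changed by 2.29 (SE 0.46) with TSA and by 1.43 (SE 0.57) with NaB. With NaB its limma adjusted p was 0.0541 and became 0.0113 with the pairs as a block. Ovol2 was not analysed here. Of 19 other epithelial surface and keratin genes 4 were paired and 3 tested, and all 3 passed with both drugs. St14, which encodes the epithelial protease matriptase, changed by 2.58 (SE 0.35) and 3.19 (SE 0.42).

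None of the 35 genes passed the thresholds for a difference between the drugs, and 5 had an unadjusted limma p below 0.05, where 1978 of all 15717 tested genes did. These 5, named after their values were seen, are Pard3b, Gjd3, Cgn, Grhl3 and Dsc2. Pard3b, a polarity gene, changed by 1.02 (SE 0.15) with TSA and 0.19 (SE 0.19) with NaB, a difference of -0.83 (95% interval -1.37 to -0.29, limma adjusted p = 0.217). Its controls stood at 139 ± 14.8 for NaB and 92.0 ± 7.05 for TSA. Gjd3, a connexin gene, changed by 0.30 (SE 0.43) and 2.30 (SE 0.53), a difference of 2.00 (0.49 to 3.51, limma adjusted p = 0.280). Here the controls stood at 4.15 ± 2.92 for NaB and 10.5 ± 4.83 for TSA. Cgn, which encodes cingulin, differed by 0.67 (0.12 to 1.23, limma adjusted p = 0.309). Between the control groups none of the 35 passed and 5 had an unadjusted p below 0.05, against 3054 of 15717 over all tested genes. The names of the 35 come from a list of upregulated genes that used the same control libraries. Nothing is therefore read from these counts. The difference between drugs and that between controls use the same control libraries with opposite sign.

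Whether the cultures match their label could not be checked, since none of the 10 neuron, 8 astrocyte and 10 oligodendrocyte markers was paired. Markers of other cells that carry junctions were followed beside the genes above. Of 15 endothelial markers 5 were paired, and their summed counts were 33.0 to 45.4 in the controls for TSA and 233 to 301 with TSA, against 37.3 and 65.8 without NaB and 215 and 245 with it. Of these, Kdr, which encodes a receptor for VEGF, went from 18.3 ± 5.19 to 109 ± 25.1 with TSA and from 27.6 ± 14.1 to 63.9 ± 5.85 with NaB. The defining genes Pecam1 and Cdh5 were not analysed here. Of 11 choroid plexus markers 2 were paired, Kl and Clic6, which summed to 3.09 to 16.0 in the controls for TSA and 70.6 to 75.8 with TSA, against 8.28 and 41.8 without NaB and 91.7 and 83.9 with it. In the endothelial, choroid plexus and pericyte lists, the summed level was higher in every treated library than in its controls. Of 6 pericyte markers 4 were paired, with sums of 18.5 to 33.8 and 141 to 169 in the TSA experiment and of 47.0 and 61.1 against 224 and 248 in the NaB experiment. The ependymal gene Dynlrb2, 1 of 6 markers paired, went from 15.4 ± 3.34 to 91.9 ± 12.4 with TSA and from 27.0 ± 4.57 to 104 ± 26.2 with NaB.

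Of the fibroblast markers, Col1a1 and Tbx18 were paired. Tbx18 went from 4.24 ± 4.22 to 26.9 ± 11.99 with TSA and from 2.61 ± 3.69 to 21.0 ± 1.05 with NaB, and its treated libraries lay above their controls with both drugs. Col1a1 was counted at 909, 47.4 and 1379 in the controls for TSA and at 798, 696 and 879 with TSA, so the groups overlapped, and at 149 and 137 without NaB and 876 and 961 with it. Control replicate 2 for TSA, the lowest of its group in Col1a1, was also the lowest in Cdh1, Ocln and F11r. It was the highest in Cldn3 and lay between the others in Epcam. It held 3 reads of Cdh1, 10 of Ocln and 1 of F11r, so counting error is large in these orders. The microglial gene Tmem119 stayed at 1.03 to 5.63 in the TSA experiment and was 1.04 and 2.09 without NaB and 15.1 and 11.6 with it. Only 2 of 9 fibroblast and 1 of 9 microglial markers were paired, and all marker names come from the same list of upregulated genes. The part of these cell types in the rise of the junction genes was not tested.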

How the data were processed

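The authors mapped paired-end poly(A) reads to the rat genome Rnor_6.0 with STAR 2.7.9a, counted them per gene with featureCounts 2.0.1 and applied median-of-ratios normalisation in DESeq2 1.29. The deposited signal is thus a normalised read count, scaled by a single size factor in each library. Whether the counting used strand is not given in the sources used here. Division by the smallest value above 0 in each library gave whole reads for 100% of values (tolerance 0.001), and 3 reads was taken as the floor of a library.

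Symbols were paired with 1909 identifiers through the readable entries of the study's list of upregulated genes, of which only names were used. The reference table at hand, of GRCr8, pairs no Ensembl identifiers. The members and lists were chosen with earlier results of these data known.

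The test was limma 3.58.1 (R 4.3.3) with a mean-variance trend on log2(value + 1), which understates the change of low genes, over 10 libraries in 4 groups. It covered the 15717 of 32883 genes kept by filterByExpr (minimum count 10), with two-sided p-values and Benjamini-Hochberg adjustment over all of them. Calls needed an adjusted p under 0.05 together with a log2 fold change of 0.5 or more in size. The scripts were tested on simulated data. DESeq2 1.42.0 and edgeR 4.0.16 on recovered reads were alternatives, with other pseudocounts, library totals, no filter, the 5 controls as 1 group, the replicate block and each library left out.

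The study states that the control and treated culture of a pair shared a plate. Pairs follow the replicate numbers for TSA and consecutive library names for NaB. After removal of group means, the residuals of paired libraries gave r = 0.284, 0.392 and 0.314 (TSA) and 0.342 (NaB) over genes. According to the methods text, the cultures were separate biological replicates. The labels do not say which animals each library came from, and p-values measure the spread between these libraries.

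Genes were named by a rule: all 9 members, in each list the 2 that rose most with both drugs by the smaller of the 2 changes, a few partners and repressors, for Cdh1, F11r and Ocln the 3 named genes with the highest r, and the neighbours of each member. The rule asked for the nearest tested neighbour. Since unpaired genes cannot be placed, the nearest protein-coding gene was taken. Some genes under the rule are not reported here.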

Additional observations from a re-analysis of the deposited data

How the results depend on the processing

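The rise of the 5 genes with each drug kept its direction and passed the thresholds under all 18 alternatives. These refit the libraries on which the genes were chosen, so they describe the processing and are no support for the rise. None of the 5 genes passed for the difference between drugs under the 17 run or between control groups under the 16 run. The 5 controls as 1 group was not run for either difference. The size of the change moved most in F11r, from 5.18 with a pseudocount of 5 to 6.95 with DESeq2 for TSA. For NaB it was 4.94 with a pseudocount of 5, against 5.99 in the reported fit. Without Control_NaB replicate 4 it was 4.97, and without Control_NaB replicate 5 it was 7.00. The NaB value of F11r thus depends strongly on which control library is kept. Small differences changed sign. For Cdh1 the difference between drugs was 0.00998 with DESeq2, 0.0015 with edgeR TMM and 0.012 with a pseudocount of 0.5, and -0.51 to 0.51 with 1 library left out. With 1 library left out, the difference between drugs ranged from -1.42 to 0.60 in F11r and from -0.27 to 0.66 in Cldn3. The difference between control groups ranged from -0.68 to 0.34 in Cdh1, -0.70 to 0.15 in Ocln, -0.55 to 1.48 in F11r and -0.74 to 0.19 in Cldn3. The cause was not tested. The 2 repressors called higher with NaB became 1, with Twist1 lost, without Control_NaB replicate 5 or without NaB replicate 1 (range 1 to 2). Leaving out 1 library also ended calls of Cldn6, Gjb5 and Tp63 with TSA and of Cldn6, Crb3, Dsg2, Klf4, Spint1 and Gjb5 with NaB. Over the junction and epithelial lists, 33 to 38 genes passed as higher with TSA and 32 to 35 with NaB, and 31 to 37 and 28 to 33 with 1 library left out. Without the filter on low counts, Cdh17, Dsc1, Dsc3, Krt23 and Snai3 passed with TSA and Tp63 did not, and Cdh17, Dsc3, Krt23 and Snai3 passed with NaB and Crb3 did not. A pseudocount of 0.5 also lost Tp63 with TSA (limma adjusted p = 0.0551). DESeq2 lost Gjb5 and gained Cdh17, Dsc1, Dsc3, Krt23 and Snai3 with TSA, and gained Krt23 with NaB. The replicate block gave 34 genes higher with TSA and 33 with NaB, the added one being Grhl2, which also passed with NaB under edgeR TMM, library totals, a pseudocount of 5 and the 5 controls as 1 group (limma or edgeR adjusted p from 0.00684 to 0.0439 over these), but not under DESeq2. The block changed no other call of a list gene or of the 5 genes. The 5 genes each kept their estimate under it, such as 2.91 for Cdh1. The difference between control groups was not run under the block, since each pair holds 1 control. Library totals moved the median log2 fold change of all genes from 0.022 to 0.20 with TSA and from 0.020 to 0.13 with NaB, below every change reported for the 5 genes. Under library totals 4675 of all tested genes passed as higher and 2166 as lower with TSA, against 3540 and 3104 in the reported fit. With NaB the counts were 3923 and 2576, against 3337 and 3184. The balance of higher and lower calls over all genes thus depends on the scaling. Genes of few reads in the controls are limited by counting error.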
